A study of Macaca mulatta with 12 samples.

Results

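The magnocellular layers of the lateral geniculate nucleus, layers 1 and 2, were compared with its parvocellular layers, layers 3 to 6. Membership was read from the layer number in each sample's title, which placed 4 of the 12 arrays in the magnocellular class and 8 in the parvocellular class. The samples were total RNA of single layers of monocularly deprived rhesus macaques, with 1 array for each layer of each hemisphere. The hemisphere on the side named ipsilateral and the one named contralateral each gave all 6 layers. The magnocellular arrays were the non-deprived layer 1 and the deprived layer 2 of the ipsilateral side, and the deprived layer 1 and the non-deprived layer 2 of the contralateral side. The parvocellular arrays were the deprived layers 3 and 5 and the non-deprived layers 4 and 6 of the ipsilateral side, with the non-deprived layers 3 and 5 and the deprived layers 4 and 6 of the contralateral side. In each class the deprived and the non-deprived layers were equal in number on each side. All 12 samples came from deprived animals, so no layer of an undeprived animal served here. The labels name neither the age nor the number of the animals, nor which samples shared one. The error given here is therefore that between layers and sides, part of which may be technical. Samples that share an animal are not independent, so the p-values may be too small or too large.

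The lateral geniculate nucleus is the part of the thalamus through which retinal signals reach the primary visual cortex, and each of its layers is driven by a single eye. In primates its magnocellular layers hold large relay neurons with thick, fast axons that carry transient, achromatic and motion signals from parasol ganglion cells. Its parvocellular layers hold smaller relay neurons, more densely packed, that carry sustained, fine-detail and red-green signals from midget ganglion cells. Both also hold GABA interneurons, astrocytes, oligodendrocytes, microglia and vessels, and the small koniocellular neurons lie mostly between them. A layer's RNA mixes all of these, and in such bulk samples fewer cells of a type and less RNA per cell cannot be told apart.

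Values are scaled intensities on a human expression array, so a value was set against the same probe set on other arrays and never against another probe set, because macaque RNA may bind human probes unequally. The 4 magnocellular values of a gene are given for ipsilateral layer 1, ipsilateral layer 2, contralateral layer 1 and contralateral layer 2, in that order. A log2 difference is magnocellular minus parvocellular with its standard error, fitted by limma with deprivation and hemisphere in the model, and an adjusted p is limma's after Benjamini-Hochberg adjustment over all 11105 probe sets tested. A gene is said to have risen or fallen where that adjusted p was under 0.05. The 12 arrays correlated with each other at 0.849 to 0.968, and no pair was identical. Ipsilateral layer 2 stood farthest from the rest, with a mean correlation of 0.868 against 0.897 to 0.934 on the other arrays. The 3'/5' intensity ratio of the ACTB control probe sets, a measure that rises as RNA degrades, was 54.7, 62.9, 38.2 and 29.8 on the magnocellular arrays, against 17.0 at the lowest, 24.7 at the median and 43.9 at the highest on the parvocellular arrays. It averaged 46.4 ± 15.1 in magnocellular and 25.7 ± 8.78 in parvocellular layers (SD, n = 4 and 8; two-sided exact permutation p = 0.0323, adjusted p = 0.323 over 12 array measures, with 0.00404 the smallest p possible). That test took no account of side, and on each side both magnocellular arrays lay above all 4 parvocellular arrays. The ratio therefore moved with the classes, and with it as a covariate only 4 of the 80 calls given below remained, those of CDH6, WNT5A, ADCYAP1 and SYK. The part of the ACTB ratio in the other results was not tested. The 3'/5' ratio of the GAPDH control averaged 5.32 ± 2.82 in magnocellular and 4.34 ± 2.90 in parvocellular layers (SD, two-sided exact permutation p = 0.578). The classes overlapped in the GAPDH ratio, and its highest value, 11.0, was that of the parvocellular ipsilateral layer 5.

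The 5 genes taken as markers of the classes all passed the test, 4 as increases and ADCYAP1 as a decrease. They were chosen with results of these arrays in view, so they describe the classes and are no independent test of the labels, although neurofilament staining is a known mark of magnocellular neurons. NEFM, the middle neurofilament subunit of thick axons, gave 115109, 71021, 79369 and 87941 in magnocellular layers, against 34514 at the lowest, 49469 at the median and 67501 at the highest in parvocellular layers. All 4 magnocellular arrays lay above all 8 parvocellular arrays, a 1.78-fold difference (log2 0.83 ± 0.12, adjusted p = 0.00295). NEFH, the heavy neurofilament subunit, gave 49125, 32085, 65573 and 79294 in magnocellular layers, against 13627 at the lowest, 27149 at the median and 52132 at the highest in parvocellular layers. Here the classes overlapped, because ipsilateral layers 1 and 2 lay below the parvocellular ipsilateral layer 6. Ipsilateral layer 2 also lay below contralateral layers 3, 4 and 5. The log2 difference was 1.01 ± 0.22 (adjusted p = 0.0423). A further NEFH probe set differed by 0.46 ± 0.11 and did not pass (adjusted p = 0.0641). NEFL, the light subunit, averaged 63439 ± 9157 in magnocellular and 48387 ± 8296 in parvocellular layers (SD, n = 4 and 8), a log2 difference of 0.40 ± 0.14 that did not pass (adjusted p = 0.217).

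CDH6, a classical cadherin of cell-to-cell adhesion, gave 8419, 8697, 8509 and 9831 in magnocellular layers, against 1663 at the lowest, 2359.8 at the median and 3385 at the highest in parvocellular layers. The classes were widely apart, 3.76-fold (log2 1.91 ± 0.19, adjusted p = 0.000177), and the difference was 1.99 ipsilaterally and 1.84 contralaterally. Its other tested probe set differed by 0.44 ± 0.26 and did not pass (adjusted p = 0.457). WNT5A, a secreted Wnt ligand, gave 4618, 4723, 3672 and 6733 in magnocellular layers, against 812 at the lowest, 1309 at the median and 2657 at the highest in parvocellular layers. This was 3.39-fold with no overlap (log2 1.76 ± 0.25, adjusted p = 0.00253), and a second WNT5A probe set also rose (log2 1.44 ± 0.25, adjusted p = 0.0115). ADCYAP1, the gene of the neuropeptide PACAP, ran the other way, with 611, 1379, 883 and 529 in magnocellular layers, against 2028 at the lowest, 2981 at the median and 3654 at the highest in parvocellular layers. Every magnocellular array lay below every parvocellular one, 3.56-fold lower on average (log2 -1.83 ± 0.22, adjusted p = 0.00111). Without ipsilateral layer 2, CDH6, WNT5A, ADCYAP1 and NEFM stayed past the threshold, while the second WNT5A probe set (adjusted p = 0.0592) and NEFH (adjusted p = 0.0997) did not.

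**Figure D1:**
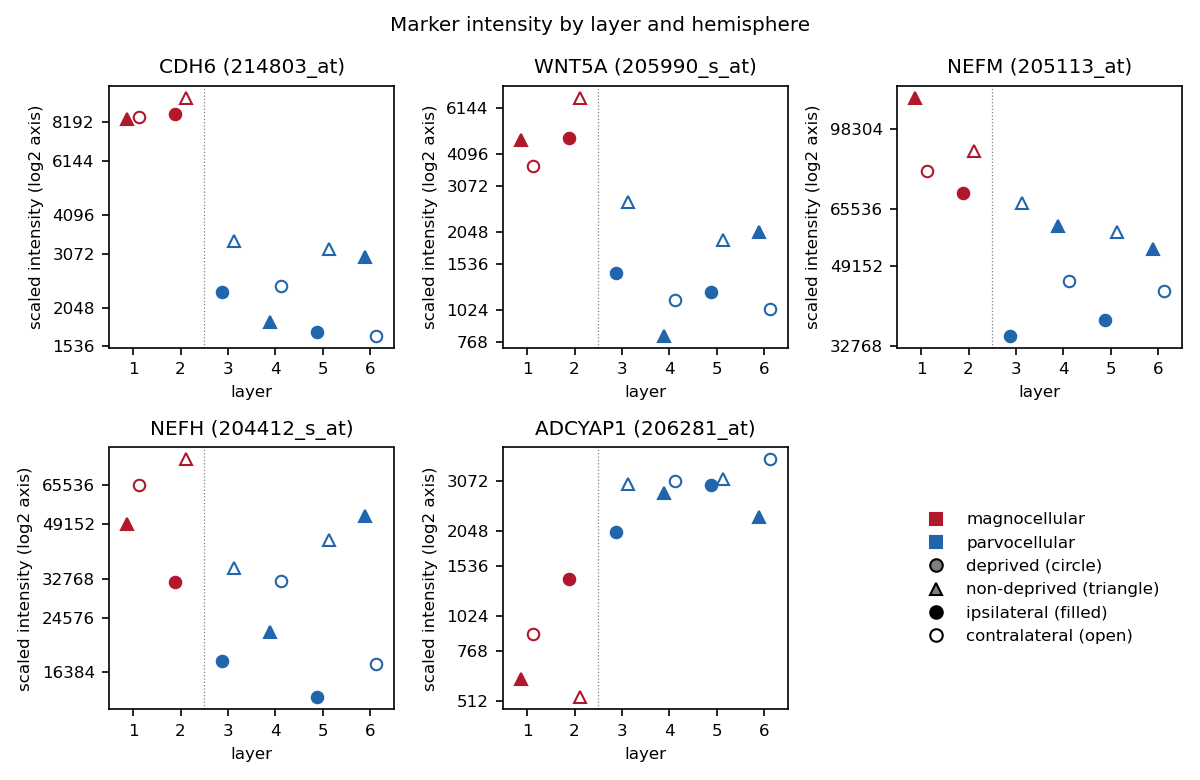
Scaled intensity (log axis) of the 5 class markers by layer, with layers 1 and 2 (magnocellular) left of layers 3 to 6 (parvocellular) and 1 point per array. For CDH6, WNT5A and NEFM all 4 magnocellular points lie above all 8 parvocellular points, for ADCYAP1 all lie below, and for NEFH the classes overlap.

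Genes of thalamic relay neurons were compared between the classes as well. They cannot check the tissue label, because no sample of another tissue was at hand. TCF7L2, a transcription factor of thalamic neurons, gave on its main probe set, that of highest mean intensity, 59388, 69442, 62239 and 63982 in magnocellular layers, against 59677 at the lowest, 64012 at the median and 79019 at the highest in parvocellular layers. On that probe set the classes overlapped almost fully (log2 -0.05 ± 0.11, adjusted p = 0.884, 95% confidence interval -0.29 to 0.19). SLC17A6, the vesicular glutamate transporter of relay neurons, averaged 39165 ± 2580 in magnocellular and 31572 ± 5089 in parvocellular layers (SD, n = 4 and 8; log2 0.33 ± 0.14, adjusted p = 0.29). Of TCF7L2's 5 other tested probe sets, a pair had -1.001 ± 0.271 (adjusted p = 0.118) and -0.949 ± 0.222 (adjusted p = 0.0639), and the rest -0.11 to 0.07. Of 10 measured relay neuron markers 3 were positive and 7 negative (median -0.17), and 0 passed in limma (3 at an unadjusted p under 0.05). The largest differences among them were those of SLC17A7, another vesicular glutamate transporter, at -1.19 ± 0.45 (adjusted p = 0.249), and of RORA, a nuclear receptor, at -0.85 ± 0.23 (adjusted p = 0.118).

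Across the whole array, 80 of 11105 probe sets differed between the classes, which is 0.72% of those tested. Of these, 33 rose in magnocellular layers (0.297%) and 47 fell (0.423%), for 27 genes that rose and 37 that fell (64 genes, 0.879% of the 7284 tested), with 11 called probe sets not named here. After centring each array on its median 31 were called, 17 of them higher (54.8%, against 41.25% of the 80). At an unadjusted p under 0.05 there were 1620, where 555.25 would be expected by chance. With the ACTB ratio as a covariate there were 531, which is no excess. The called differences had a median size of 1.04 on the log2 scale, and 46 of them were at least 2-fold (16 higher and 30 lower). For 60 of the 80 the arrays of the classes did not overlap, against 62 probe sets wholly above (0.558%) and 105 wholly below (0.946%) among all tested. The 80 had 1 direction in both hemispheres and in both deprivation states, and both magnocellular layer means lay beyond all 4 parvocellular layer means. The probe sets were selected on these same arrays, so these counts describe them and support nothing further. The count moved with single arrays: it was 17 without contralateral layer 1, 19 without contralateral layer 2, 27 without ipsilateral layer 2, 35 without contralateral layer 6, 38 without contralateral layer 3, 51 without contralateral layer 5 and 188 without ipsilateral layer 6.

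**Figure D2:**
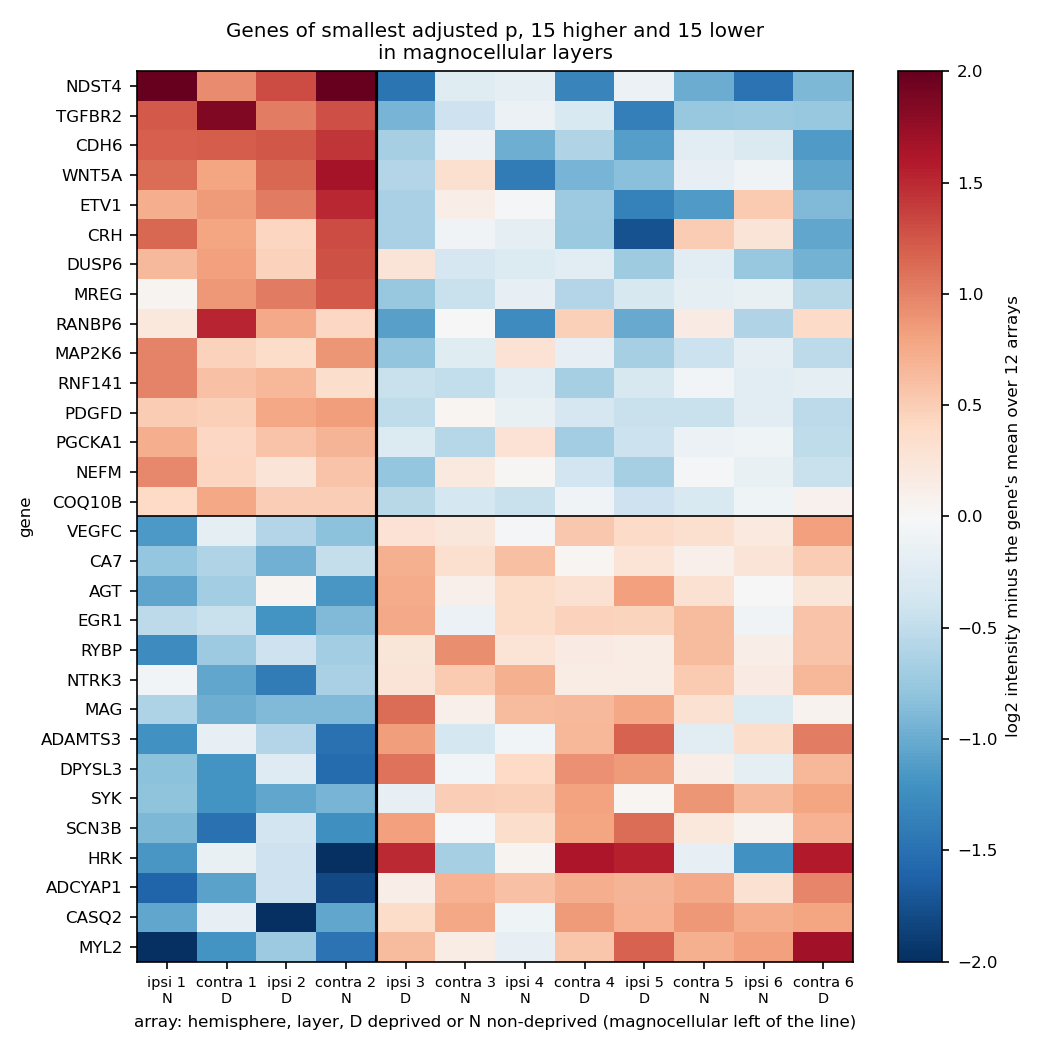
Heat map of the 15 genes of smallest adjusted p in each direction, with arrays as columns (4 magnocellular left of the line, 8 parvocellular right of it) and colour for log2 intensity minus the gene's mean over the 12 arrays. The upper genes are high in the magnocellular columns and the lower genes are low there, while HRK, AGT, ADAMTS3, CRH and RANBP6 have arrays that overlap between the classes.

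TGFBR2, the ligand-binding type II receptor of TGF-beta, gave 4133, 3594, 6366 and 4292 in magnocellular layers, against 686 at the lowest, 1044 at the median and 1635 at the highest in parvocellular layers. No arrays overlapped, and the difference was 4.06-fold (log2 2.02 ± 0.22, adjusted p = 0.000287). PDGFD, a ligand of the platelet-derived growth factor receptors, gave 4335, 5208, 4235 and 5448 in magnocellular layers, against 2117 at the lowest, 2331 at the median and 3118 at the highest in parvocellular layers. It rose 1.96-fold without overlap (log2 0.97 ± 0.16, adjusted p = 0.00895). Of 24 measured TGF-beta and BMP pathway genes, TGFBR2 alone passed (4.17%, against 0.879% of all 7284 genes tested). The list's median difference was -0.07, with 10 positive and 14 negative, against a median of -0.06 and 42.4% positive over all 7284 genes.

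NTRK3, the receptor of neurotrophin-3, fell on 4 of its 6 tested probe sets. On the probe set of smallest p it gave 4425, 1737, 2227 and 2946 in magnocellular layers, against 5070.4 at the lowest, 6042 at the median and 7495 at the highest in parvocellular layers. No arrays overlapped (2.26-fold lower, log2 -1.18 ± 0.20, adjusted p = 0.00895). The 3 others that passed had log2 differences of -0.86 ± 0.16, -0.97 ± 0.19 and -0.87 ± 0.18, and the 2 that did not had -0.48 ± 0.16 and -0.0032 ± 0.23. Those 3 carry a design suffix for probes that may also bind other transcripts. VEGFC, a growth factor of lymphatic vessels, gave 552, 814, 1079 and 688 in magnocellular layers, against 1188 at the lowest, 1506 at the median and 2145 at the highest in parvocellular layers. It fell 2.03-fold without overlap (log2 -1.02 ± 0.17, adjusted p = 0.00895). ADAMTS3, a secreted protease known to cleave procollagen and the VEGFC precursor, fell 2.45-fold (log2 -1.29 ± 0.18, adjusted p = 0.00253). Its contralateral layer 1, at 1399.5, lay above the lowest parvocellular array, at 1228.

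The epidermal growth factor receptor EGFR gave 728, 131, 537 and 468 in magnocellular layers, against 519 at the lowest, 1548 at the median and 1719 at the highest in parvocellular layers. It fell 3.28-fold (log2 -1.71 ± 0.37, adjusted p = 0.0422), but ipsilateral layer 2 was the lowest array by far and the classes overlapped at the parvocellular ipsilateral layer 6. Without ipsilateral layer 2 the difference was -1.20 and did not pass (adjusted p = 0.14). Nor did it pass with each combination of hemisphere and deprivation as a block (adjusted p = 0.0511), and its other tested probe sets had -0.50 ± 0.25 and -0.26 ± 0.22. SYK, a cytoplasmic tyrosine kinase best known from immune cells, gave 761, 647, 580.4 and 694 in magnocellular layers, against 1188 at the lowest, 1974 at the median and 2444 at the highest in parvocellular layers. It fell 2.81-fold with a wide gap between the classes (log2 -1.49 ± 0.20, adjusted p = 0.00148). Microglia, which also use SYK, had 6 measured markers, of which 1 was positive and 5 were negative with 0 passing the limma test (0 at an unadjusted p under 0.05). Their summed intensity was 9303 to 12707 in magnocellular and 9420 to 19287 in parvocellular layers, which overlapped (two-sided exact permutation p = 0.392).

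Genes that act on or respond to MAP kinases moved in both directions. DUSP6, a cytoplasmic phosphatase that switches off ERK, gave 6463, 5679, 7311 and 9995 in magnocellular layers, against 2163 at the lowest, 3342 at the median and 4948 at the highest in parvocellular layers. DUSP5, a nuclear ERK phosphatase, gave 193, 302, 234 and 406 in magnocellular layers, against 541 at the lowest, 818 at the median and 1414 at the highest in parvocellular layers. So the ERK phosphatases stood on opposite sides without overlap: DUSP6 rose 2.29-fold on 1 probe set (log2 1.20 ± 0.22, adjusted p = 0.0183) and DUSP5 fell 3.03-fold (log2 -1.60 ± 0.31, adjusted p = 0.0208). The magnocellular DUSP5 values lay below those arrays' median intensities of 411.5 to 666.5, so the size of its fold is uncertain. The filter on the mean over all arrays could be passed through the parvocellular DUSP5 values. The other tested DUSP6 probe set had 0.54 ± 0.18 and did not pass (adjusted p = 0.197). ETV1, an ETS transcription factor induced by this pathway, gave 2283, 2848, 2500.4 and 3940.2 in magnocellular layers, against 542 at the lowest, 862 at the median and 1990.4 at the highest in parvocellular layers. It rose 2.92-fold without overlap (log2 1.54 ± 0.28, adjusted p = 0.015), though its 3 other tested probe sets had 0.05 ± 0.19, 0.07 ± 0.24 and -0.26 ± 0.33 and did not pass. MAP2K6, the kinase that activates p38, gave 4413, 2848, 3036 and 4082 in magnocellular layers, against 1274 at the lowest, 1752 at the median and 2700.2 at the highest in parvocellular layers. It rose 2.02-fold, again with no overlap (log2 1.02 ± 0.18, adjusted p = 0.015).

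Of 33 measured receptor kinase and MAP kinase feedback genes, 2 rose (DUSP6 and ETV1) and 4 fell (EGFR, SYK, DUSP5 and FGF14). That is 18.2%, against 0.879% of all 7284 genes, but the list was chosen with earlier results of these data known. The list's median was 0.04, with 18 positive and 15 negative, and 7 had an unadjusted p under 0.05 (21.2%, against 14.7% of all 7284 genes). FGF14, an intracellular relative of the fibroblast growth factors that binds sodium channels, gave 495, 263, 581 and 463 in magnocellular layers, against 780.2 at the lowest, 1069.6 at the median and 1692 at the highest in parvocellular layers. It fell 2.46-fold without overlap (log2 -1.30 ± 0.25, adjusted p = 0.0229). In ipsilateral layers 1 and 2 FGF14 lay below the arrays' median intensities (494.6 against 509.2, and 263.2 against 666.5). In contralateral layers 1 and 2 it lay above them (580.6 against 411.5, and 463.1 against 448.4).

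Of 28 measured activity-regulated genes, DUSP6 rose and EGR1, PLAT and DUSP5 fell, and 12 had an unadjusted p under 0.05 (42.9%). Over all 7284 genes, 27 rose, 37 fell and 1068 had such a p (14.7%). The list's median was -0.25, with 8 positive and 20 negative. EGR1, an immediate-early zinc-finger transcription factor, gave 1720.3, 1078, 1832 and 1340.3 in magnocellular layers, against 2298 at the lowest, 3399 at the median and 4202 at the highest in parvocellular layers. All magnocellular arrays were below all parvocellular arrays (2.21-fold lower, log2 -1.15 ± 0.20, adjusted p = 0.015). PLAT, tissue plasminogen activator, gave 1288, 936, 1603 and 1301 in magnocellular layers, against 1619.8 at the lowest, 2295 at the median and 3236 at the highest in parvocellular layers. It fell 1.89-fold (log2 -0.92 ± 0.20, adjusted p = 0.0417), with contralateral layer 1 just under the lowest parvocellular array. With each combination of hemisphere and deprivation as a block, PLAT did not pass (adjusted p = 0.0511). Other members did not pass: FOSL2 had -1.45 ± 0.38 (adjusted p = 0.0996), EGR3 -0.81 ± 0.23 (0.135) and JUN -0.73 ± 0.20 (0.128), all transcription factors induced by activity.

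Neuropeptide genes differed through CRH and ADCYAP1. CRH, corticotropin-releasing hormone, gave 49187, 29755, 38229.6 and 54508 in magnocellular layers, against 6623 at the lowest, 16724 at the median and 31283 at the highest in parvocellular layers. It rose 2.6-fold (log2 1.38 ± 0.20, adjusted p = 0.00253), and the overlap was between ipsilateral layer 2 and the highest parvocellular array, contralateral layer 5. Its second probe set had 0.89 ± 0.23 and did not pass (adjusted p = 0.102). Of 21 measured neuropeptides and their receptors no other gene passed. The share called was 9.52%, against 0.879% of all 7284 genes tested. Among the receptors and partners of these peptides, CRHR1 had -0.12 ± 0.22, CRHR2 -0.15 ± 0.24 and the CRH-binding protein gene CRHBP 0.34 ± 0.24, none past the threshold.

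Ion channel genes gave 1 call in each of the potassium and sodium channel families. KCND3, a pore subunit of A-type potassium channels, gave 2586, 5094, 3796 and 2809.7 in magnocellular layers, against 1377 at the lowest, 1769 at the median and 2586 at the highest in parvocellular layers. It rose 1.88-fold (log2 0.91 ± 0.19, adjusted p = 0.0316), and ipsilateral layer 1 was level with the highest parvocellular array, ipsilateral layer 5. SCN3B, an auxiliary beta subunit of voltage-gated sodium channels, gave 277, 395, 184 and 221 in magnocellular layers, against 504 at the lowest, 748 at the median and 1122 at the highest in parvocellular layers. It fell 2.83-fold without overlap (log2 -1.50 ± 0.26, adjusted p = 0.0133). Its magnocellular values lay below those arrays' median intensities of 411.5 to 666.5, so the size of the fold is uncertain. The filter on the mean over all arrays could be passed through the parvocellular SCN3B values. The pore subunits did not pass: SCN1A had 0.31 ± 0.29, SCN3A -0.48 ± 0.27 and SCN8A -0.46 ± 0.29. Of 20 measured potassium channel genes KCND3 alone passed, with a median of -0.05, and of 4 sodium channel genes SCN3B alone passed, with a median of -0.47. Over all 7284 genes tested 0.879% passed. None of 10 calcium and HCN channel genes passed, and 0 of them had an unadjusted p under 0.05 in limma.

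Transmitter receptors and the release machinery held no called gene in limma. Of 14 glutamate receptor genes 5 were positive and 9 negative (median -0.07, 2 at an unadjusted p under 0.05), with GRIA3, an AMPA receptor subunit, at -0.84 ± 0.33 (adjusted p = 0.254). The other tested GRIA3 probe set had 0.06 ± 0.34. Of 9 GABA and glycine receptor genes 7 were positive and 2 negative (median 0.05, 1 at an unadjusted p under 0.05), with GABRB1, a GABA-A receptor subunit, at -0.47 ± 0.17 (adjusted p = 0.232). Of 11 genes for acetylcholine, monoamine and other modulatory receptors 3 were positive and 8 negative (median -0.39, 2 at an unadjusted p under 0.05). The leading members there were the nicotinic subunit CHRNA3 at -1.06 ± 0.30 and the histamine receptor HRH3 at -0.74 ± 0.21 (adjusted p = 0.135 for each). Of 28 synaptic vesicle and release genes 8 were positive and 20 negative (median -0.11, 7 at an unadjusted p under 0.05), with STX1A, a syntaxin of the fusion machinery, at -0.87 ± 0.26 (adjusted p = 0.146).

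Genes of the cell surface and matrix held further increases. NDST4, an enzyme that sulfates heparan sulfate chains, gave 2997, 1561, 1209 and 2910.5 in magnocellular layers, against 225 at the lowest, 328 at the median and 581 at the highest in parvocellular layers. The lowest magnocellular array was above the highest parvocellular one, and the average difference was 5.73-fold (log2 2.52 ± 0.33, adjusted p = 0.00146). The parvocellular NDST4 values were low, mostly below those arrays' median intensities of 457 to 645.5. The size of this fold is therefore uncertain, and the filter on the mean over all arrays could be passed through the magnocellular values. SPP1, the secreted phosphoprotein osteopontin, gave 13512, 14746, 16997 and 23116 in magnocellular layers, against 5228 at the lowest, 10363 at the median and 12702 at the highest in parvocellular layers. It rose 1.72-fold without overlap (log2 0.78 ± 0.17, adjusted p = 0.0398). NDST4 was the call among 25 measured heparan sulfate and matrix genes (median -0.08), and CDH6 the call among 15 cadherins and protocadherins (median -0.08). WNT5A was the call among 20 Wnt signalling genes, of which 4 were positive and 16 negative (median -0.20). The Wnt shares were 20% positive and 5% called, against 42.4% and 0.879% over all 7284 genes tested. None of 32 axon guidance genes passed (3 at an unadjusted p under 0.05 in limma), and the leading one, EFNB2, an ephrin ligand, had 0.84 ± 0.20 (adjusted p = 0.0681).

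SPP1, NEFM and NEFH were the 3 called genes among 7 measured genes that earlier macaque work had reported as magnocellular, recalled here from memory and possibly chosen on related samples, so this is not independent evidence. The share called was 42.9%, against 0.879% of all 7284 genes tested. The other measured members of that list had 0.40 ± 0.14 for NEFL, -0.16 ± 0.25 for the potassium channel KCNA1, -0.18 ± 0.21 for caveolin CAV1 and -0.37 ± 0.19 for the elongation factor EEF1A2, and none passed. Of 5 genes recalled as parvocellular, TCF7L2 alone was measured above the filter.

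Apart from the neurofilaments NEFM and NEFH, which rose, cytoskeletal genes with calls included DPYSL3 and MICAL2. DPYSL3, a collapsin response mediator of growing axons, gave 807, 1192, 618 and 490.4 in magnocellular layers, against 1253 at the lowest, 2059.8 at the median and 3029.5 at the highest in parvocellular layers. No arrays overlapped (2.69-fold lower, log2 -1.43 ± 0.20, adjusted p = 0.00233). MICAL2, an oxidoreductase that disassembles actin filaments, fell on 2 of 3 tested probe sets (log2 -0.94 ± 0.20, adjusted p = 0.0415, and -0.87 ± 0.19, adjusted p = 0.0382). DPYSL3 was the call among 30 measured genes of the axonal and dendritic cytoskeleton (3.33%, against 0.879% of all 7284 genes tested). That list's median was -0.10, and 8 of its genes had an unadjusted p under 0.05 (26.7%, against 14.7% of all genes).

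MYL2 and CASQ2, genes known from heart muscle, were also among the decreases. MYL2, the regulatory light chain of ventricular myosin, gave 212, 584, 422 and 347 in magnocellular layers, against 862 at the lowest, 1535 at the median and 3079 at the highest in parvocellular layers. Each magnocellular array was below each parvocellular one, 4.25-fold lower on average (log2 -2.09 ± 0.26, adjusted p = 0.00131). The magnocellular MYL2 values lay near or below those arrays' median intensities of 411.5 to 666.5, so the size of the fold is uncertain. The filter on the mean over all arrays could be passed through the parvocellular MYL2 values. CASQ2, the cardiac form of the calcium store protein calsequestrin, gave 735, 222, 1353 and 732 in magnocellular layers, against 1430 at the lowest, 2557 at the median and 2751 at the highest in parvocellular layers. It fell 3.68-fold without overlap (log2 -1.88 ± 0.30, adjusted p = 0.00659), and ipsilateral layer 2 was the lowest array. Without that array the difference was -1.39 (adjusted p = 0.0102). Of 13 measured muscle-type genes 1 was positive and 12 were negative (median -0.13), and MYL2 and CASQ2 were the calls. The shares were 7.69% positive and 15.4% called, against 42.4% and 0.879% over all 7284 genes tested. The list was chosen with earlier results of these data known. ACTA2, the smooth muscle actin of vessel walls, had 0.77 ± 0.25 and did not pass (adjusted p = 0.17).

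Other decreases belonged to no single pathway. RYBP, a subunit of Polycomb complexes, gave 4314, 7717, 6227 and 6330 in magnocellular layers, against 11318 at the lowest, 12269.8 at the median and 19563 at the highest in parvocellular layers. It fell 2.23-fold without overlap (log2 -1.16 ± 0.18, adjusted p = 0.00521), and its other tested probe sets had -1.31 ± 0.37 and -0.71 ± 0.23 and did not pass. CA7, a cytosolic carbonic anhydrase of neurons, gave 575, 508, 648 and 709 in magnocellular layers, against 1014 at the lowest, 1216 at the median and 1614 at the highest in parvocellular layers. This was 2.08-fold lower without overlap (log2 -1.06 ± 0.20, adjusted p = 0.0206). HRK, a pro-apoptotic BH3-only protein, gave 720.4, 1203, 1449 and 275 in magnocellular layers, against 698 at the lowest, 3111 at the median and 4920.2 at the highest in parvocellular layers. Its magnocellular values were 1203 and 1449 in the deprived and 720.4 and 275.2 in the non-deprived layers, against 4551, 4732, 4920 and 4822 in the deprived and 1671, 697.6, 1018 and 1441 in the non-deprived parvocellular layers. The classes overlapped at 3 non-deprived parvocellular arrays, ipsilateral layer 6 and contralateral layers 3 and 5, and the parvocellular median lay between the deprived and the non-deprived values. HRK fell 3.04-fold (log2 -1.60 ± 0.26, adjusted p = 0.00895), by 1.85 in deprived and 1.36 in non-deprived layers on the log2 scale.

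Other increases were also of mixed function. MREG, melanoregulin, a protein of organelle transport in pigment cells, gave 1346, 2648, 2365 and 3015 in magnocellular layers, against 762 at the lowest, 995 at the median and 1169.6 at the highest in parvocellular layers. It rose 2.28-fold with no overlap (log2 1.19 ± 0.22, adjusted p = 0.0185). COQ10B, a coenzyme Q-binding protein of mitochondria, gave 5259, 5611, 6848 and 5618 in magnocellular layers, against 2705 at the lowest, 3165 at the median and 4229 at the highest in parvocellular layers. It too was free of overlap (1.75-fold, log2 0.81 ± 0.16, adjusted p = 0.0233). RNF141, a RING finger protein, rose 1.97-fold, and PGCKA1, a partner of GCKIII kinases, rose 1.86-fold (adjusted p = 0.0249 and 0.0208), both without overlap. RANBP6, an importin-like protein, rose 2.13-fold (adjusted p = 0.0239), with its highest value of 9038 in contralateral layer 1 and an overlap of the classes.

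The other 9 genes that rose were AFF1, MAF, ABCA5, REXO2, NQO2, ARAP2, LRP8, ISCU and NUP58, by 1.54-fold to 2.52-fold. The other 15 that fell were NREP, CCNI, RBFOX2, SF3B1, MYCN, PRRC2B, BRINP3, DTNA, VASH1, LSM4, CD99, USF2, ARID1A, UBE2H and MPV17, by 1.52-fold to 2.87-fold. These 24 lie outside the rule for named genes and are listed so that the calls are complete. Of the 26 called genes with several tested probe sets, 24 had the same sign on all of them, and the exceptions were ETV1 and MAF. A shared sign includes values near 0, and only 3 of the 26 had 2 or more probe sets past the threshold. Beside its called probe set, SF3B1 had -0.75 ± 0.22, -0.02 ± 0.17 and -0.01 ± 0.17, none past the threshold. RBFOX2 likewise had -0.34 ± 0.22 and -0.11 ± 0.14, and PRRC2B had -0.31 ± 0.16.

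The lists of proteasome, chaperone and oxidative phosphorylation genes held no called gene, and most of their members were positive. Of 27 measured proteasome genes 22 were positive (median 0.16, 6 at an unadjusted p under 0.05 in limma), led by the core subunits PSMA4 at 0.78 ± 0.24 and PSMA2 at 0.61 ± 0.17 (adjusted p = 0.152 and 0.135). The other tested PSMA2 probe set had 0.05 ± 0.16. Of 23 heat shock and chaperone genes 18 were positive (median 0.16, 7 at an unadjusted p under 0.05), with HSPA5, the chaperone of the endoplasmic reticulum, at 0.85 ± 0.26 (adjusted p = 0.149). Of 61 oxidative phosphorylation genes 43 were positive (median 0.10, 8 at an unadjusted p under 0.05), with NDUFV2, a complex I subunit, at 0.60 ± 0.16 and ATP5MC1, an ATP synthase subunit, at 0.53 ± 0.15 (adjusted p = 0.118 and 0.142). These shares stand against 42.4% positive over all genes tested. All 3 medians were positive under quantile normalization, median centring and with the ACTB ratio as a covariate. Of 29 glycolysis and citric acid cycle genes 13 were positive and none passed (median -0.02, 7 at an unadjusted p under 0.05), and of 21 ion-pumping ATPase genes 9 were positive and none passed (median -0.11, 1 at an unadjusted p under 0.05).

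Genes of the cytosolic ribosome and of translation lay on the other side, with 10 of 42 positive and 32 negative (median -0.17). The shares were 23.8% positive and 2.38% called, against 42.4% and 0.879% over all 7284 genes tested (median -0.06). EEF2, the elongation factor that moves the ribosome along its message, gave 485, 439.6, 501 and 1061 in magnocellular layers, against 839 at the lowest, 1888 at the median and 4017 at the highest in parvocellular layers. It fell 3.24-fold (log2 -1.69 ± 0.33, adjusted p = 0.0229), but contralateral layer 2 overlapped the parvocellular arrays, and its other tested probe set had -0.66 ± 0.23 (adjusted p = 0.210). With the ACTB ratio as a covariate the list's median was 0.01 and EEF2 had -0.78. Under median centring the medians of 8 of the 38 lists turned positive, all near 0 (0.0092 to 0.0846): those of TCF7L2 as the single parvocellular marker and of the potassium channel, glutamate receptor, TGF-beta, matrix, cadherin, glycolysis and astrocyte genes.

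**Figure D3:**
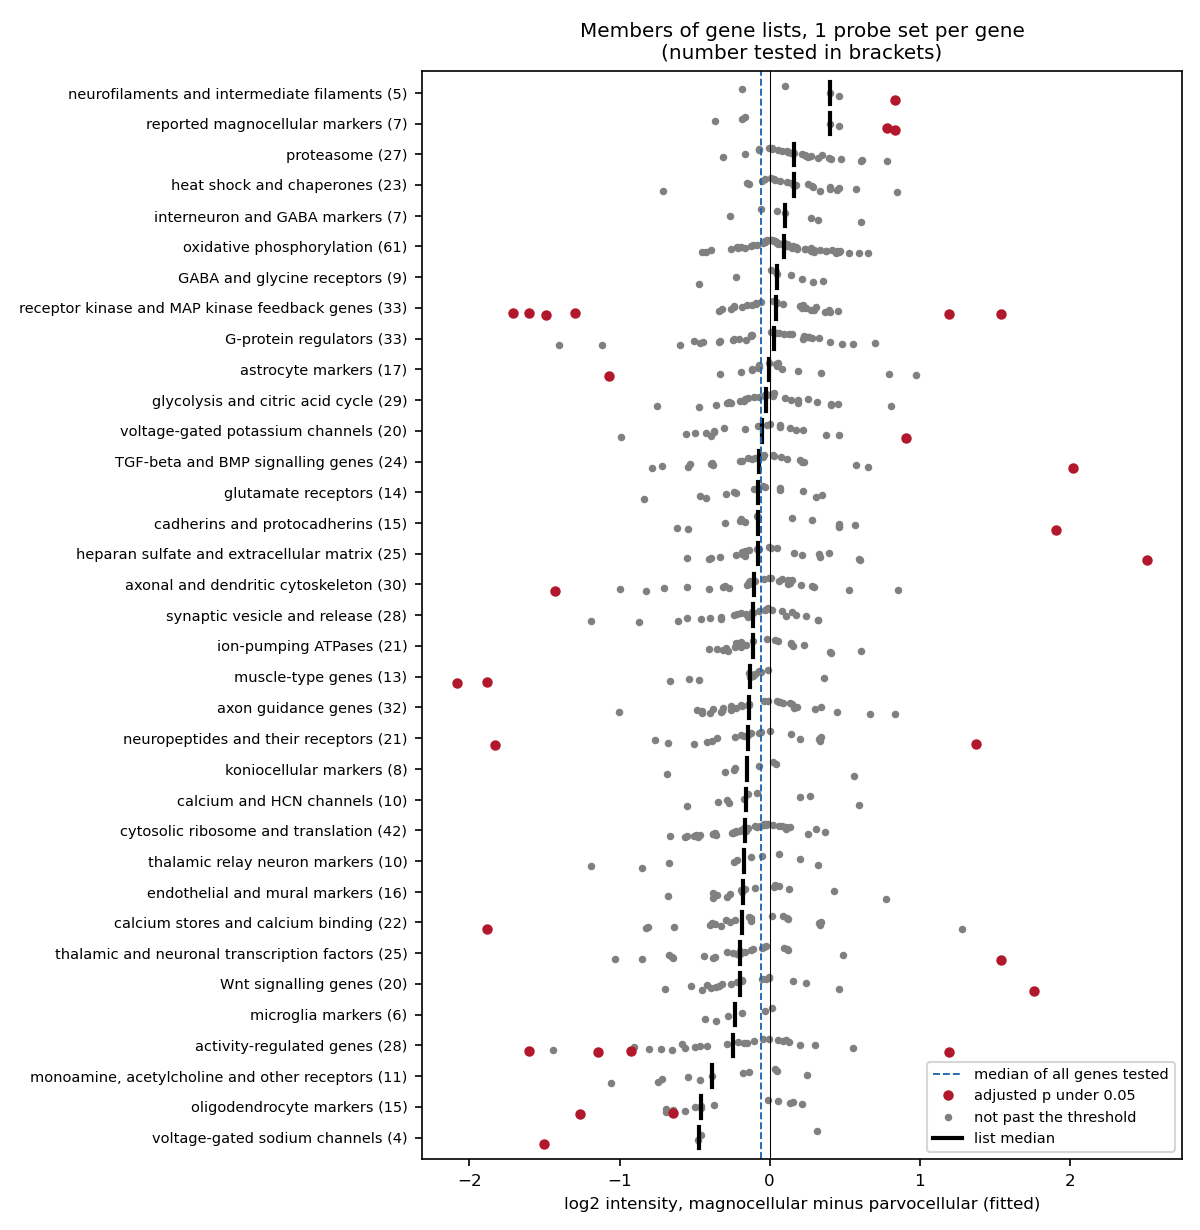
Log2 difference, magnocellular minus parvocellular (horizontal axis), of the measured members of each gene list, 1 point per gene by its probe set of highest mean, red where past the threshold, with black bars for list medians and a dashed line for the median of all genes tested. Neurofilament, proteasome and chaperone genes have medians right of the line and oligodendrocyte markers, modulatory receptors and activity-regulated genes left of it; NEFH and EEF2 are grey here because another of their probe sets passed.

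Among the other cells of a layer, oligodendrocytes showed calls for 2 of 15 measured markers (13.3%, against 0.879% of all 7284 genes tested). MBP, myelin basic protein, gave 30138, 34780.2, 31831 and 38303 in magnocellular layers, against 45938 at the lowest, 51238 at the median and 73296 at the highest in parvocellular layers. It fell 1.56-fold without overlap (log2 -0.64 ± 0.13, adjusted p = 0.0334), and its other tested probe sets had -0.62 ± 0.21 and -0.74 ± 0.20 and did not pass. MAG, the myelin-associated glycoprotein, gave 648, 537, 505 and 535 in magnocellular layers, against 823 at the lowest, 1379 at the median and 2148 at the highest in parvocellular layers. It fell 2.4-fold, likewise without overlap (log2 -1.26 ± 0.23, adjusted p = 0.018). Of 15 measured oligodendrocyte markers 4 were positive and 11 negative (median -0.46), and 9 had an unadjusted p under 0.05 (60.0%), against 42.4% positive and 14.7% with such a p over all 7284 genes. Among the 9 were SOX10 at -0.69 ± 0.24, MOBP at -0.56 ± 0.19 and CNP at -0.50 ± 0.21. MOG and OLIG2, at 0.06 ± 0.28 and 0.16 ± 0.26, were close to 0. The markers' summed intensity was 100065 to 168828 in magnocellular and 129436 to 242388 in parvocellular layers, which overlapped (two-sided exact permutation p = 0.0727, adjusted p = 0.323). With the ACTB ratio as a covariate the list's median was -0.04.

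Astrocyte markers held 1 call (5.88%, against 0.879% of all 7284 genes tested). Of 17 astrocyte markers 8 were positive and 9 negative (median -0.0011), and AGT, angiotensinogen, made by astrocytes in the brain, was the call among them. It gave 1442, 3096, 1853 and 1333 in magnocellular layers, against 2976 at the lowest, 3687 at the median and 5289 at the highest in parvocellular layers. AGT fell 2.1-fold (log2 -1.07 ± 0.18, adjusted p = 0.00895), with an overlap at ipsilateral layer 2. The summed astrocyte intensity was 210927 to 290717 in magnocellular and 191897 to 269446 in parvocellular layers (exact permutation p = 0.590).

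Of 7 measured interneuron markers 5 were positive (median 0.10). GAD1, an enzyme that makes GABA, gave 33738, 38124, 54374 and 38322 in magnocellular layers, against 18273 at the lowest, 27749 at the median and 41850.4 at the highest in parvocellular layers. The classes overlapped and the difference of 0.61 ± 0.19 did not pass (adjusted p = 0.168). The summed interneuron intensity was 70577, 75191, 109324 and 71829 in magnocellular layers, against 53548 at the lowest, 57995 at the median and 84562 at the highest in parvocellular layers (exact permutation p = 0.0808, adjusted p = 0.323). Of 16 endothelial and mural markers 6 were positive and 10 negative (exact permutation p of the sum 0.202), and of 8 koniocellular markers 3 were positive and 5 negative (p of the sum 0.869, likewise an exact permutation test). KCTD12 had 0.56 ± 0.20 and CAMK2A -0.68 ± 0.29 in that list, opposite in sign and not past the threshold. The parts these cell types play in the called genes were not tested.

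**Figure D4:**
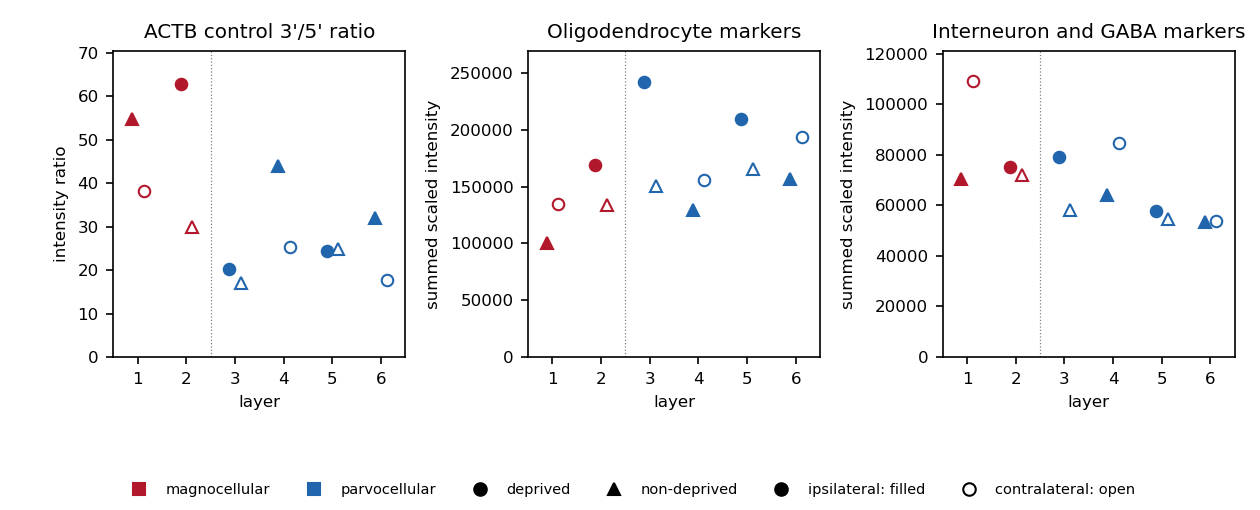
ACTB 3'/5' intensity ratio and summed scaled intensity of oligodendrocyte and of interneuron markers by layer, with 1 point per array, magnocellular in red left of the dotted line and parvocellular in blue right of it. The magnocellular arrays reach 62.9 in the ACTB ratio, where the parvocellular arrays reach 43.9, and both marker sums overlap between the classes.

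The design allowed the class difference to be compared between deprived and non-deprived layers, between hemispheres and between the magnocellular layers themselves. No probe set showed a class difference that changed with deprivation (0%, smallest adjusted p in limma 0.259, 969 at an unadjusted p under 0.05) or with hemisphere (0%, smallest adjusted p 0.732, 457 at an unadjusted p under 0.05). Nor did any differ between layer 1 and layer 2 (0%, smallest adjusted p 0.0850, 598 at an unadjusted p under 0.05). For each of these comparisons 555.25 would be expected at such a p by chance, so the count for deprivation, 969, was above it. A p above the threshold does not show that the values were alike. ADCYAP1 had a class difference of -1.38 in deprived and -2.29 in non-deprived layers, and the difference between these did not pass. CASQ2 differed from the parvocellular layers by -1.23 in layer 1 and -2.53 in layer 2, and EGFR by -1.04 and -2.38, where the low value of ipsilateral layer 2 entered both. Of the 33 probe sets that rose, layer 1 was the highest layer for 20 and layer 2 for 13. Of the 47 that fell, layer 1 was the lowest for 21 and layer 2 for 26.

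The number of calls differed between hemispheres and between parvocellular layers. With ipsilateral arrays alone there were 0 calls in limma (599 at an unadjusted p under 0.05), and with contralateral arrays alone 164, yet the 80 had the same sign on both sides. Against layers 3 and 4 alone there were 6 calls (DPYSL3, NEFH, CRH, NDST4, TGFBR2 and CDH6), and against layers 5 and 6 alone 11. The genes called against both pairs of parvocellular layers were CRH, NDST4, TGFBR2 and CDH6. Without ipsilateral layers 1 and 2, which had the highest ACTB ratios, 9 calls were made, and all 9 were among the 80. They were DPYSL3, RYBP, ADCYAP1, HRK, SYK, TGFBR2, MYL2, CDH6 and MREG. This setting was chosen after the ratios were seen.

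**Figure D5:**
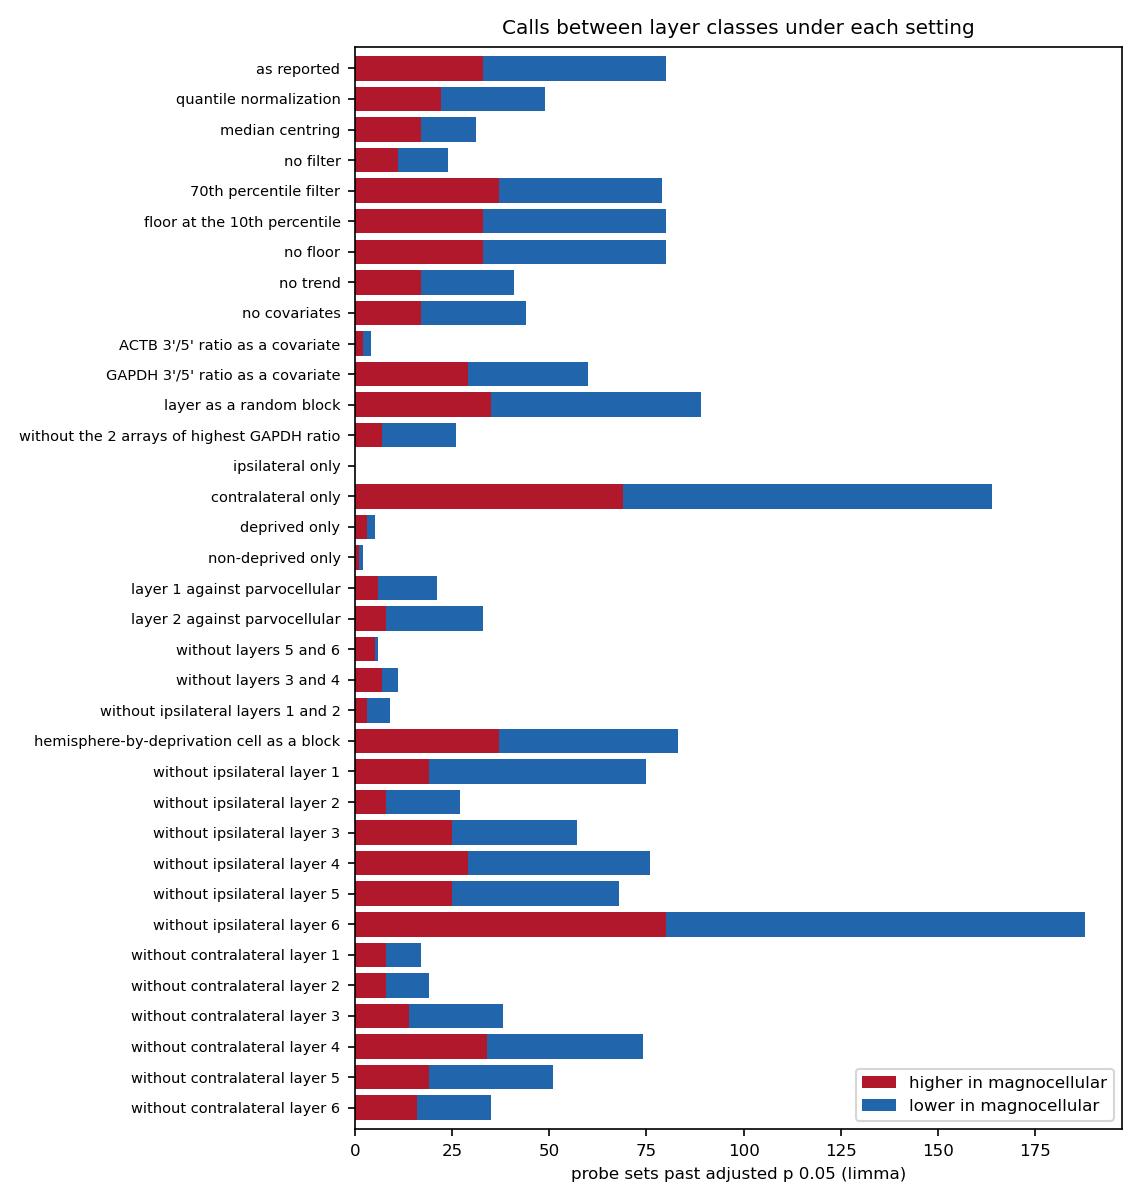
Number of probe sets that rose and fell in magnocellular layers (horizontal axis) under each alternative setting, with the 33 that rose and 47 that fell in the comparison as reported in the top bar. The number of calls runs from 0 with ipsilateral arrays alone to 188 without ipsilateral layer 6, and is 4 with the ACTB ratio as a covariate.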

How the data were processed

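Each sample was total RNA of a single layer on a human Affymetrix expression array with 22283 probe sets. The deposited table held 1 positive intensity per probe set and array on a linear scale, and which software the authors used for it is not given in the sources used here. Trimmed by 2%, the arrays' means ran from 1500.45 to 1500.6, so the deposited intensity values had been scaled and were not rescaled. From these, a floor at the 20th percentile of all values (110.8) was set, which touched 0.0683% of the values tested, and log2 was taken. The 11105 probe sets at or above the median mean log2 value were tested, without 68 controls. The model was fitted in limma 3.58.1 (R 4.3.3) with a mean-variance trend, with class, deprivation and hemisphere as additive terms over 12 arrays (8 residual degrees of freedom), two-sided, Benjamini-Hochberg adjusted, and was tested on simulated data. Class interactions (7 degrees of freedom) and a fit by layer (4) were separate. Array measures were compared by exact permutation tests. Precision is limited by the number of arrays.

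Of the probe sets, 19065 named 1 gene, 1043 several and 2107 none here, and none was named from several. Of 11959 symbols, 11286 (94.4%) were in the macaque gene tables. Gene lists kept the probe set of highest mean per gene (7284 genes), while calls were counted over all tested probe sets. Named were the class markers, the 15 genes of smallest adjusted p per direction with 1 sign in both hemispheres and deprivation states, list members past the threshold or else the 2 of smallest p, and genes called on several probe sets. The class markers and lists were chosen with earlier results of these data known. Alternatives were the scaling, floor, filter, trend, covariates, the control probe ratios, layer as a random block, each combination of hemisphere and deprivation as a block, single hemispheres, deprivation states and layers, and each array left out.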

Additional observations from a re-analysis of the deposited data

Results flagged for a closer look

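Single arrays far from the rest of their class were sought among 188 groups of values, where chance flags about 1 in 20, and 12 were found. In the parvocellular layers, the ipsilateral layer 3 had the highest SLC17A7 (3684, others 505.4 to 1133), CRYAB (10610.5, others 3933 to 6131), MBP (73296, others 45938 to 53048) and HBB (13076, others 3142 to 5477). The same array had the highest summed blood markers (13905, others 3626 to 6428). The ipsilateral layer 4 had the highest GABBR1 (20044, others 6884 to 12592). The ipsilateral layer 5 had the highest LAPTM5 (4175, others 1986.5 to 2985) and GAPDH 3'/5' ratio (11.0, others 2.21 to 5.65).

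In the magnocellular layers, the ipsilateral layer 2 had the highest CACNA2D1 (874.5, others 620.2 to 652.2) and summed endothelial and mural markers (51074, others 36779 to 39088). The contralateral layer 2 had the highest EEF2 (1061, others 439.6 to 500.7). The contralateral layer 1 had the highest summed interneuron markers (109324, others 70577 to 75191). Of these genes, MBP and EEF2 had been called. Without the ipsilateral layer 3 the count of calls was 57.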

How the results depend on the processing

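The 80 called probe sets had the same sign in every setting in which they were tested, but their number moved. It was 49 with quantile normalization, 31 with median centring, 24 with no filter (22215 tested), 41 without a trend, 44 without covariates, 4 with the ACTB ratio as a covariate and 26 when the 2 arrays with the highest GAPDH ratio were left out. With part of the arrays it was 0 ipsilaterally (599 at an unadjusted p under 0.05 in limma), 164 contralaterally, 5 in deprived and 2 in non-deprived layers. It was 21 for layer 1 and 33 for layer 2 against the parvocellular layers, 6 without layers 5 and 6, 11 without layers 3 and 4, and 9 without ipsilateral layers 1 and 2. Leaving out single arrays gave 17 to 188. It stayed within 1.5 times with a stricter filter (79), other floors (80 each), the GAPDH ratio as a covariate (60) and layer as a random block (89, with all 80 among them). A like count did not always mean the same probe sets. The stricter filter kept 65 of the 80 for testing, and those 65 were among its 79. With the GAPDH ratio 54 of the 60 were among the 80. With fewer arrays fewer degrees of freedom remain, and otherwise the cause was not tested. With no filter, 5 class differences varied with deprivation and 15 with hemisphere, where 0 of each did as reported.

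Signs turned only among values that had not passed. TCF7L2 was 0.0362 with median centring, 0.000117 with the ACTB ratio, 0.0169 in layer 2 and 0.0317 without layers 5 and 6. GABBR1 was -0.0631 with the ACTB ratio, -0.0304 in layer 2 and -0.0395 without layers 5 and 6. SLC17A7 was 0.32 and HBB 0.0801 with the ACTB ratio, HBB was 0.0402 in layer 2, and CACNA1I was 0.0092 in layer 1. Leaving out single arrays moved the class difference of the GAPDH ratio between -0.378 and 1.93, of median intensity between -79.6 and 5.42, of summed koniocellular markers between -3756 and 1026 (820.3 and 863.6 without the ipsilateral layers 3 and 5), and of summed astrocyte markers between -5749 and 20848. Of 38 list medians, 30 kept their sign under both other scalings. The labels give no replicate numbers that the classes share, so arrays were not paired by replicate. They tie the classes through hemisphere and deprivation, which are terms of the model. With their 4 combinations as a block, a setting chosen after the data were seen, 83 probe sets were called, 74 of them among the 80, and EGFR and PLAT did not pass (adjusted p = 0.0511 each).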

Other observations

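Genes of G-protein signalling and of thalamic transcription control were measured as well. Of 33 G-protein regulators 18 were positive and 15 negative (median 0.03), and 0 passed in limma (10 at an unadjusted p under 0.05, or 30.3%, against 14.7% of all 7284 genes). RGS14, a regulator of G-protein signalling, gave 605.6, 432.6, 354.4 and 281.3 in magnocellular layers, against 658 at the lowest, 807.6 at the median and 1505 at the highest in parvocellular layers. The classes did not overlap, but the log2 difference of -1.12 ± 0.25 missed the threshold (adjusted p = 0.0540). Of 25 thalamic and neuronal transcription factor genes 5 were positive and 20 negative (median -0.20), and ETV1 alone passed. The shares were 20% positive and 4% called, against 42.4% and 0.879% over all 7284 genes tested. RORA, a nuclear receptor of thalamic neurons, had -0.85 ± 0.23 (adjusted p = 0.118).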
